A study of Mus musculus with 25 samples.

Results

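The microRNAs miR-205-5p and miR-203-3p were followed across mouse mammary glands and mammary tumours as a pair of stratified epithelial microRNAs. They are the 2 members taken by exact name (mmu-miR-205-5p and mmu-miR-203-3p in the files) from the 1122 mouse microRNAs on the array. All samples came from female mice of the FVB strain, and single-colour Agilent arrays measured total RNA from bulk frozen tissue. The normal group (wild type) was 2 pools of mammary tissue, 1 from multiparous and 1 from nulliparous mice. The Met group was 7 tumours of MMTV-Met mice, in which the mouse mammary tumour virus promoter, active mainly in mammary and some other epithelia, drives a Met receptor transgene. The MetTrp53 group was 8 tumours of MMTV-Met mice that also carried Trp53fl/+, a conditional Trp53 allele deleted by Cre, and the Trp53 group was 8 tumours with Trp53fl/+ and Cre alone. The promoter that drives Cre and the ages of the mice are not given in the sources used here. Of the 23 tumours, 12 were labelled as carcinomas of some kind (4 Adenocarcinoma, 3 Poorly Differentiated Adenocarcinoma, 3 Solid Nodular Carcinoma, 1 Scirrhous Adenocarcinoma, 1 Adenosquamous), 3 as Intermediate and 7 as Spindloid, and for 1 no pathology was stated. Spindloid tumours are made of spindle-shaped cells, and adenosquamous tumours hold squamous as well as glandular areas.

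MicroRNAs are short RNAs that pair through their seed with messenger RNAs and lower their translation or stability. miR-205 is known from basal and myoepithelial cells of the mammary gland, from stratified epithelia and from mammary progenitor cells, and it pairs with the messenger RNAs of Zeb1 and Zeb2, repressors of E-cadherin. miR-203 rises as keratinocytes leave the basal layer and differentiate, and it pairs with the messenger RNA of p63, a factor of basal epithelial stem cells. Both are low in many tumour cells that have lost epithelial character.

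The mature sequences are shown because the arrays read these arms and because the seed, bases 2 to 8 from the 5′ end, sets each microRNA's family. Both members matched RefSeq entries of build GRCm38.p6, and the seed is in capitals.
miR-205-5p: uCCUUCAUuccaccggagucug
miR-203-3p: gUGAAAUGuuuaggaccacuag
Their hairpins follow, with the measured arm in capitals, because the other arm of each was also on the array.
Mir205 hairpin: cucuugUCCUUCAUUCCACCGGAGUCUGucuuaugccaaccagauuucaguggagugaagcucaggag
Mir203 hairpin: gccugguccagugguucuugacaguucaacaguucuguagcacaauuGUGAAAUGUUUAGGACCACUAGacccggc

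The miR-205-5p arm lies on the minus strand at chr1:193507503-193507524 and its hairpin at chr1:193507463-193507530, inside the span of Mir205hg, a long noncoding RNA gene. The nearest annotated protein-coding genes are Camk1g, 137108 bases away, and Plxna2, 1112261 bases away. The miR-203-3p arm lies on the plus strand at chr12:112130927-112130948 and its hairpin at chr12:112130880-112130955, between Aspg, 3307 bases away, and Kif26a, 13019 bases away. The miRNA gene Gm51289 overlaps the Mir203 hairpin. The members have different seeds, and no other of the 881 array microRNAs with a RefSeq mature sequence shares the seed of either one. The opposite arms, miR-205-3p and miR-203-5p, were detected on 0 of 25 arrays, so the values below are those of 1 arm of each hairpin.

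Levels are log2 intensities scaled between arrays, with a floor at 3.60 that stands for values too dim to be ordered. A microRNA was called detected on an array where the scanner software's own detection call said so, and this call can be met just under the floor. Each member had 2 probe sequences of 20 spots each. Over the 15 arrays where both miR-205-5p probes lay above the floor they followed each other with r = 0.999, and over the 6 such arrays for miR-203-3p r was 0.945 (both across arrays, as a description). No spot of either member was saturated. The arrays detected 220 to 334 mouse microRNAs each, and the scaling value ran from 279 to 909 units of intensity (3.26-fold), which sets how dim a microRNA can be and still be read. Trp53 tumours 2 and 3 carry the same title number, as do Trp53 tumours 4 and 8, and separate animals are not stated for any tumour. The p-values therefore measure only the spread between these samples, which may in part be technical. Levels of the 2 members are not compared with each other, since each probe has its own response.

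miR-205-5p stood at a middle level in normal gland and spread over the whole measured range in tumours. The multiparous pool had 7.54 and the nulliparous pool 7.66. In the 7 Met tumours the lowest, median and highest levels were 3.76, 6.58 and 9.22, and miR-205-5p was detected in all 7. In the 8 MetTrp53 tumours they were 3.60, 5.11 and 9.20, with detection in 6. In the 8 Trp53 tumours they were 3.60, 3.60 and 8.15, with detection in 3 and 6 at the floor. The groups overlapped in range, and 6 of the 23 tumours lay above both pools (3 Met, 2 MetTrp53, 1 Trp53) while the other 17 lay below both. In bulk tissue, fewer cells of a type and less RNA per cell cannot be told apart.

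miR-203-3p was at the floor in most Trp53-deleted tumours. The multiparous pool had 5.10 and the nulliparous pool 4.70. Met tumours had a lowest level of 3.60, a median of 4.09 and a highest of 5.40, and 6 of 7 detected it. MetTrp53 tumours had a median of 3.60, with 7 of 8 at the floor and 1, tumour 3, at 5.28. Trp53 tumours had 7 of 8 at the floor and a highest level of 3.75, in tumour 2. The scanner software detected miR-203-3p in 2 of 8 tumours in each of these groups, in MetTrp53 tumour 5 and Trp53 tumour 3 at levels under the floor. Of the 23 tumours, 9 detected both members, 7 only miR-205-5p, 1 only miR-203-3p and 6 neither.

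**Figure D1:**
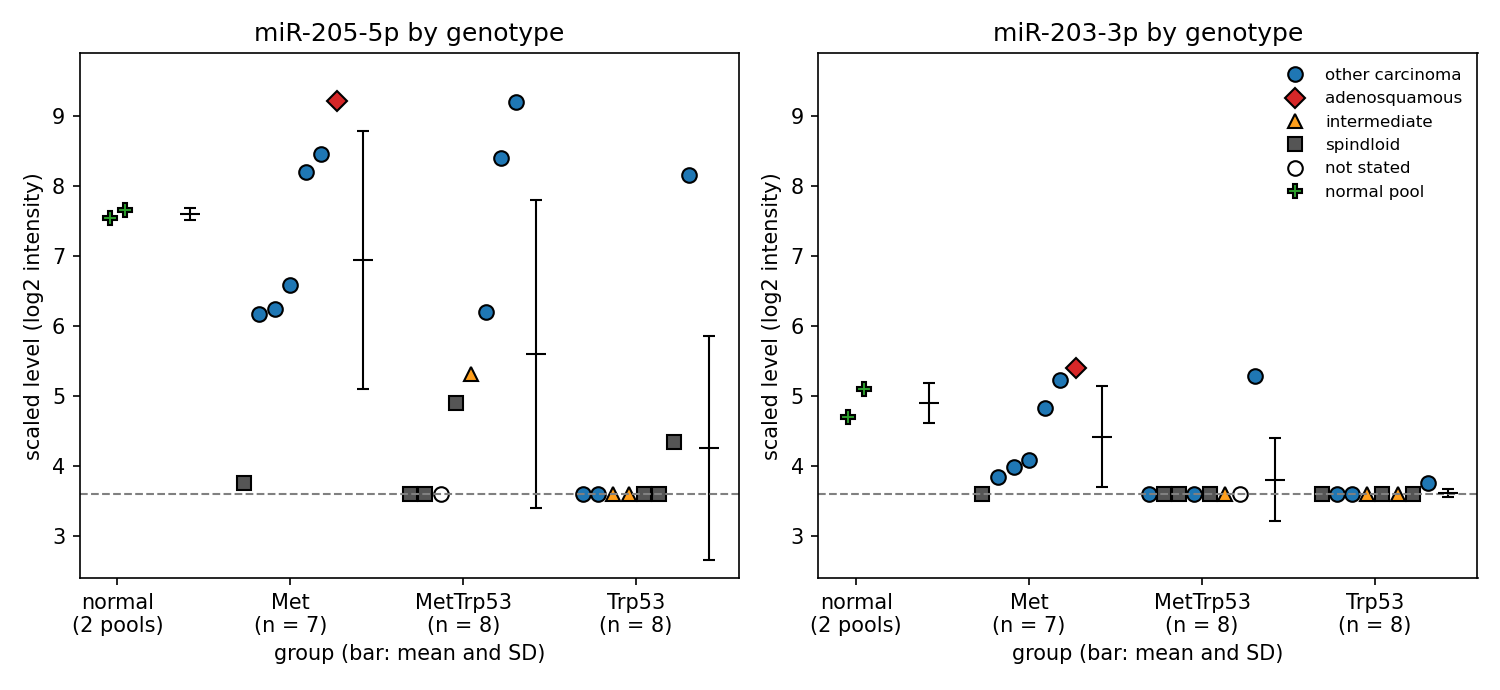
Scaled levels (log2 intensity) of miR-205-5p (left) and miR-203-3p (right) on every array, by group, with 1 point per array, the pathology by symbol, and the group mean with its SD beside the points. The dashed line is the floor of 3.60. Trp53 tumours lie mostly on the floor for both members, apart from tumour 3 at 8.15 for miR-205-5p.

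Across 22 tumours, pathology in 3 classes alone took 52.2 percent of the sum of squares of miR-205-5p and genotype alone 29.1 percent, as a description; for miR-203-3p the shares were 27.2 and 31.4 percent. In the 12 carcinomas the level of miR-205-5p ran from 3.60 through a median of 7.37 to 9.22. In the 7 spindloid tumours it was 3.76 in Met tumour 2, 4.34 in Trp53 tumour 1, 4.91 in MetTrp53 tumour 7 and 3.60, the floor, in the other 4. The 3 intermediate tumours had 5.31 in MetTrp53 tumour 6 and 3.60 in the other two. Detection was in 10 of 12 carcinomas, 2 of 3 intermediate and 3 of 7 spindloid tumours (carcinomas against spindloid, two-sided Fisher's exact p = 0.129, adjusted 0.885), and the ranges overlapped because Trp53 tumours 2 and 4, both labelled Adenocarcinoma, were at the floor.

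With genotype in the model, miR-205-5p was lower in spindloid tumours than in carcinomas by -2.84 on the log2 scale (SE 0.71, 95% interval -4.33 to -1.35, limma adjusted p = 0.0183), on a mean of 3.92 ± 0.51 (SD, n = 7) against 7.00 ± 1.95 (SD, n = 12). In this comparison 19 of the 330 tested microRNAs (5.76 percent) passed the test. Of these, 14 were lower in spindloid tumours (4.24 percent of those tested), and miR-205-5p ranked 15 by p. With 4 of 7 spindloid tumours at the floor the size moved with it, to -3.43 with a floor 4 times lower, and it was -1.78 under normexp correction. An exact permutation test of its plain mean difference, -3.09, added after the data were seen, gave a two-sided p of 0.00175. The difference was negative on all 5 slides, between -5.21 and -1.12, and was -3.03 (limma adjusted p = 0.0356) with slide as a block. The call was lost with no detection filter (limma adjusted p = 0.0846), without Met tumour 2, the only spindloid Met tumour (limma adjusted p = 0.120), without MetTrp53 tumour 5 (limma adjusted p = 0.0523), and when intermediate tumours were counted with carcinomas (-2.25, limma adjusted p = 0.174). Among the 12 Trp53-deleted tumours with 3 of each kind per genotype, the difference was -3.90 in MetTrp53 and -1.27 in Trp53, and an interaction term for this difference in limma gave -2.63 (SE 1.75, limma adjusted p = 1). That term called 0 of 330 microRNAs.

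Within the carcinomas the order of miR-205-5p levels ran from the adenosquamous tumour at 9.22 through poorly differentiated adenocarcinomas at 8.59 ± 0.55 (SD, n = 3), the scirrhous adenocarcinoma at 8.20, solid nodular carcinomas at 6.33 ± 0.22 (SD, n = 3) and adenocarcinomas at 5.47 ± 2.34 (SD, n = 4). Intermediate tumours followed at 4.17 ± 0.99 (SD, n = 3) and spindloid tumours at 3.92. The adenosquamous tumour lay just above the poorly differentiated range, 8.15 to 9.20, the scirrhous tumour inside it, and every solid nodular carcinoma below the scirrhous tumour. Solid nodular carcinomas differed from adenocarcinomas, adenocarcinomas from intermediate tumours and intermediate from spindloid tumours by less than the spread of the wider class. The solid nodular carcinomas, all from Met mice, had 6.18, 6.24 and 6.58, below the other 3 Met carcinomas at 8.20, 8.46 and 9.22 with no overlap, as were 17.6 percent of tested microRNAs. The adenocarcinomas were split, with 8.46 in Met tumour 7, 6.21 in MetTrp53 tumour 1 and the floor in the 2 Trp53 tumours. Trp53 tumours 2 and 3, which share a title number, stood at the floor and at 8.15. The intermediate tumours were lower than carcinomas by -2.23 (SE 0.97, limma adjusted p = 0.517), where limma called 0 of 330 microRNAs and 26 had an unadjusted p under 0.05.

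miR-203-3p was seen in carcinomas and in neither other class. It was detected in 10 of 12 carcinomas, 0 of 7 spindloid and 0 of 3 intermediate tumours. In the carcinomas its lowest, median and highest levels were 3.60, 3.91 and 5.40, and 4 of the 12 were at the floor. In neither spindloid nor intermediate tumours was it well above background on any array. No fold is given against the carcinoma mean of 4.23, because it includes the 4 carcinomas at the floor. The detection counts gave a two-sided Fisher's exact p of 0.000714 for spindloid tumours against carcinomas, or 0.0786 when adjusted over the 330 microRNAs, of which 7.58 percent had p under 0.05. The fitted level difference was -0.45 (SE 0.26, limma adjusted p = 0.402). The plain difference ran from -1.74 to -0.18 over the 5 slides. It could not be positive on any, because all 7 spindloid tumours were at the floor. With a floor 4 times lower, normexp background correction or the authors' deposited table the fitted difference passed (limma adjusted p = 0.00713, 0.0474 and 0.00491).

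By carcinoma type, miR-203-3p stood at 5.40 in the adenosquamous tumour, 4.68 ± 0.63 in solid nodular carcinomas (SD, n = 3), 4.16 ± 0.97 in poorly differentiated adenocarcinomas (SD, n = 3), 4.09 in the scirrhous tumour and 3.70 ± 0.12 in adenocarcinomas (SD, n = 4). The adenosquamous and the scirrhous tumour, 1 sample each, lay above the range of the class that follows them, 3.98 to 5.22 and 3.60 to 3.84, and the other neighbours overlapped. The order is not that of miR-205-5p: solid nodular carcinomas, lower for miR-205-5p, had 3.98, 4.83 and 5.22 of miR-203-3p, overlapping the 3.84, 4.09 and 5.40 of the other Met carcinomas. Among poorly differentiated adenocarcinomas, MetTrp53 tumour 3 had 5.28 and the other two were at the floor.

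**Figure D2:**
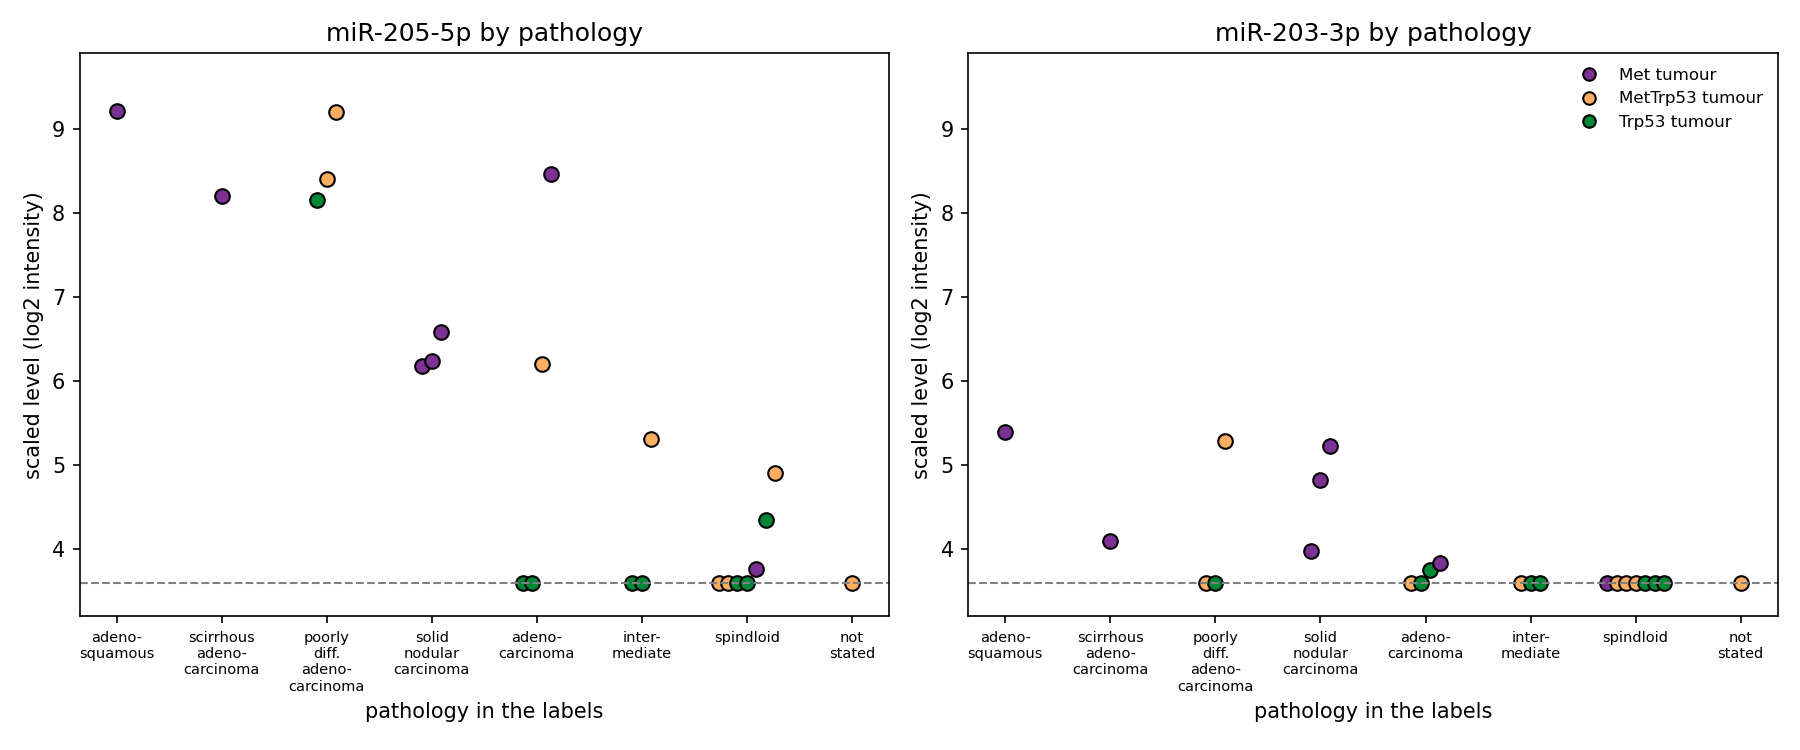
Scaled levels (log2 intensity) of miR-205-5p (left) and miR-203-3p (right) in the 23 tumours by labelled pathology, with 1 point per tumour coloured by genotype and the floor of 3.60 as a dashed line. Spindloid tumours lie at or under 4.91 for miR-205-5p and at the floor for miR-203-3p.

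Genotype was then compared, which asks whether the Met transgene and the Trp53 deletion go with different levels. Met tumours had a mean of 6.95 ± 1.84 for miR-205-5p (SD, n = 7) and Trp53 tumours 4.26 ± 1.59 (SD, n = 8), a difference of 2.69 (SE 0.93, limma adjusted p = 0.0674), in a comparison where 10 percent of tested microRNAs passed. For miR-203-3p the means were 4.42 ± 0.72 and 3.62 ± 0.05, a difference of 0.80 (SE 0.26, limma adjusted p = 0.0513), and 6 of 7 Met tumours lay above every Trp53 tumour. Both members thus missed the threshold over all microRNAs. An exact permutation test of each member alone gave p = 0.0101 for miR-205-5p and 0.0014 for miR-203-3p (two-sided; 0.0269 and 0.00699 adjusted over 8 such tests). By detection the counts were 7 of 7 against 3 of 8 for miR-205-5p and 6 of 7 against 2 of 8 for miR-203-3p (two-sided Fisher's exact p = 0.0256 and 0.0406, adjusted 0.705 and 0.892), and 4.55 percent of microRNAs had such a p under 0.05. The 5 slides each held all 3 genotypes. Met was higher on 4 of 5 for miR-205-5p, from -0.91 to 5.62, and on 5 of 5 for miR-203-3p, from 0.24 to 1.80. For miR-203-3p a negative value was possible only on the slide of Trp53 tumour 2, since the other 7 Trp53 tumours were at the floor. The negative slide for miR-205-5p held Met tumour 2, the spindloid one, and Trp53 tumour 3. Without either of them the miR-205-5p difference passed (3.22 and 3.24, limma adjusted p = 0.0168 and 0.0169). Without Met tumour 2 or 7 the miR-203-3p difference passed as well (0.94 and 0.90, limma adjusted p = 0.0146 and 0.0405). For each member the other 13 of the 15 fits that left out 1 array did not pass. The highest limma adjusted p for miR-205-5p was 0.142, without Met tumour 4, the adenosquamous one (2.31). For miR-203-3p the highest was 0.129, without Met tumour 6 (0.67).

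Pathology moved with genotype, since 6 of 7 Met tumours were carcinomas against 3 of 8 in each Trp53-deleted group. With pathology as a covariate the Met minus Trp53 difference was 1.47 for miR-205-5p (SE 0.80, limma adjusted p = 0.453) and 0.61 for miR-203-3p (SE 0.29, limma adjusted p = 0.419). Parity moved with genotype as well, since 6 of 7 Met tumours were from multiparous mice and 1 had none stated, against 2 of 8 MetTrp53 and 2 of 8 Trp53 tumours from multiparous mice (3 Trp53 tumours had none stated). With parity as a covariate the difference was 2.12 for miR-205-5p (SE 1.47, limma adjusted p = 0.465) and 0.41 for miR-203-3p (SE 0.37, limma adjusted p = 0.555). Under normexp correction it was 1.31 and 0.25 (limma adjusted p = 0.171 and 0.814), and with a floor 2 times higher it was 0.27 for miR-203-3p. Among carcinomas alone, the 6 Met tumours had a miR-205-5p mean of 7.48 ± 1.31 (SD), the 3 MetTrp53 tumours 7.94 ± 1.55 (SD) and the 3 Trp53 tumours 5.12 ± 2.63 (SD). Their miR-203-3p means were 4.56 ± 0.68, 4.16 ± 0.97 and 3.65 ± 0.09 (SD). All 6 Met carcinomas detected miR-203-3p, as did 2 of 3 carcinomas in each Trp53-deleted group.

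The MetTrp53 group stood between the others on both members. Its miR-205-5p mean of 5.60 ± 2.20 (SD, n = 8) was -1.34 from Met (SE 0.93, limma adjusted p = 0.460) and 1.34 from Trp53 (SE 0.90, limma adjusted p = 0.805). The direction against Met turned with pathology as a covariate (0.07) and among carcinomas (0.46). For miR-203-3p the mean of 3.81 ± 0.60 was -0.61 from Met (SE 0.26, limma adjusted p = 0.203) and 0.19 from Trp53 (SE 0.25, limma adjusted p = 0.929). Its level rested on MetTrp53 tumour 3: without it the first difference was -0.82 (limma adjusted p = 0.0190) and the second -0.02, and the second was also -0.05 under normexp correction. Detection in 6 of 7 Met against 2 of 8 MetTrp53 tumours gave a Fisher's exact p of 0.0406 for miR-203-3p (adjusted 1), in a comparison where 3.03 percent of microRNAs were under 0.05. In these 2 comparisons of levels limma called 0 microRNAs, with 61 and 23 at an unadjusted p under 0.05. Over the 3 genotypes at once, the moderated F-test gave adjusted p = 0.154 for miR-205-5p and 0.106 for miR-203-3p.

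Against normal gland, miR-203-3p in Trp53 tumours was the single member result that passed, lower by -1.28 (SE 0.40, limma adjusted p = 0.0368), with all 8 tumours below both pools. Since 7 of the 8 tumours were at the floor, the size moved with the floor: it was -2.90 with a floor 4 times lower, -0.51 with one 2 times higher (limma adjusted p = 0.0887) and -2.84 in the authors' deposited table. In that comparison 44 of 330 microRNAs passed (13.3 percent), 26 of them lower (7.88 percent of those tested). The call was lost under normexp correction (-0.24, limma adjusted p = 0.554) and with slide as a block (-1.05, limma adjusted p = 0.115). It was also lost in 6 of the 10 fits that left out 1 array, those without either pool (limma adjusted p = 0.418 and 0.131) and those without Trp53 tumour 1, 5, 6 or 7 (limma adjusted p = 0.0509, 0.0524, 0.0524 and 0.0523). MetTrp53 tumours were at -1.09 (SE 0.40, limma adjusted p = 0.0762, 14.8 percent called). Without MetTrp53 tumour 3 this difference passed (-1.30, limma adjusted p = 0.00556). Met tumours were at -0.48 (SE 0.41, limma adjusted p = 0.569, 12.4 percent called) and at 0.01 under normexp correction. For miR-205-5p the differences from normal were -0.65, -1.995 and -3.34 in Met, MetTrp53 and Trp53 tumours (limma adjusted p = 0.838, 0.413 and 0.138). Without Trp53 tumour 3 the last of these passed (-3.89, limma adjusted p = 0.0471). For all tumours the difference was -1.99 for miR-205-5p (SE 1.33, limma adjusted p = 0.401). For miR-203-3p it was -0.95 (SE 0.37, limma adjusted p = 0.111), where 12.7 percent were called. Of 25 fits of that difference that left out 1 array, 1 passed. Only 2 pools stand for normal gland, and the median of all tested microRNAs moved by 0.32 under normexp correction in Trp53 minus normal and by -0.13 with the percentile of every mouse probe in Met minus normal.

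Summed levels of several tissue lists were higher in the pools than in the carcinomas. All 5 skeletal muscle microRNAs were detected in both pools, and their summed level was 13.39 to 13.89 there against a median at the floor sum of 5.92 in carcinomas (range 5.92 to 11.02). The 2 tested smooth muscle and myoepithelial microRNAs, miR-143-3p and miR-145-5p, summed to 7.80 to 7.83 in the pools and to 5.08 to 7.39 in carcinomas. The 3 adipose microRNAs summed to 9.98 to 11.16 in the pools and to 8.24 to 9.78 in carcinomas. The 2 endothelial microRNAs summed to 10.75 to 11.05 in the pools and to 7.57 to 10.46 in the 23 tumours, and both were lower in tumours than in normal gland (limma adjusted p = 0.0399 for miR-126-3p and 0.000527 for miR-126-5p). None of these lists had a marker undetected in the pools among those tested. A microRNA detected in both pools was tested whatever its tumour levels, so the filter in part set this. miR-499-5p, detected in 0 tumours, and miR-206-3p, detected in 5, were tested only through the pools. miR-143-5p and miR-145-3p, detected in neither pool and in 0 tumours, were left out. The part of these lists in the differences from normal was not tested.

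**Figure D3:**
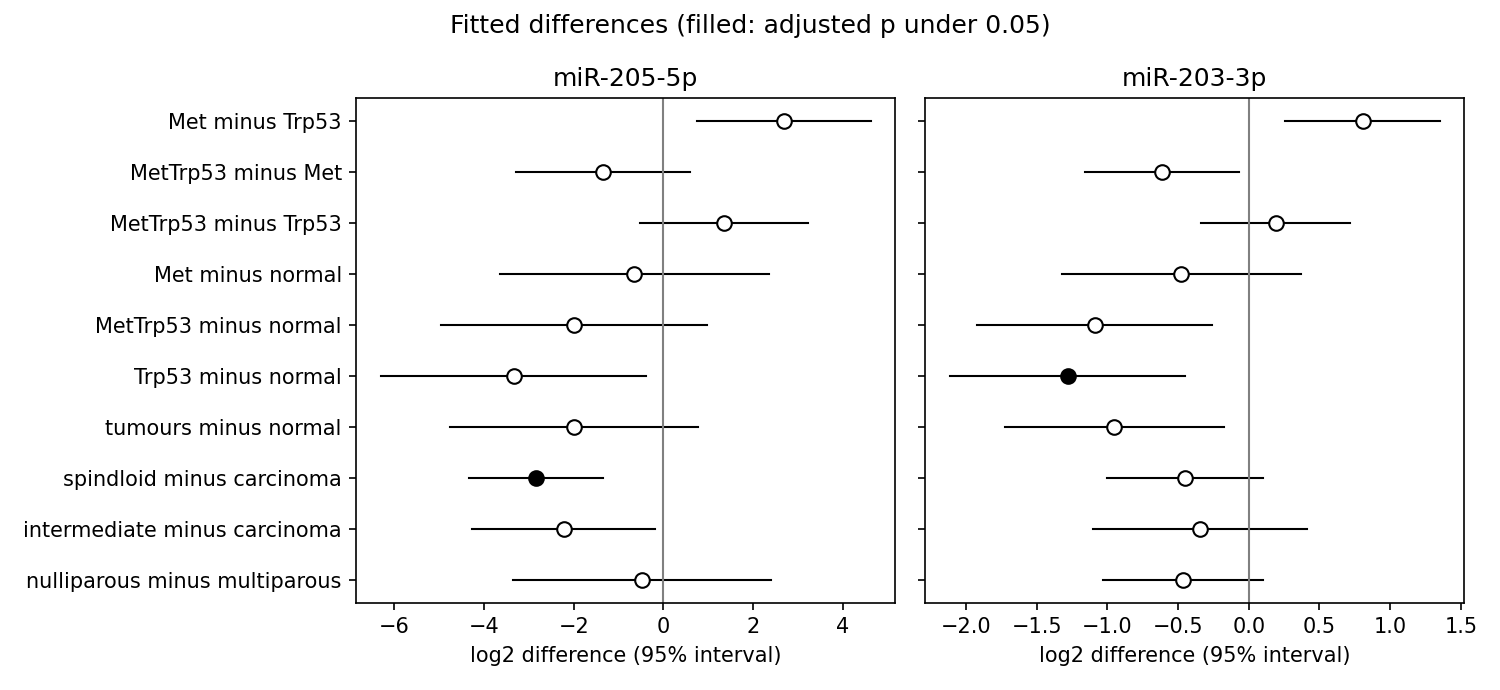
Fitted log2 differences with 95% intervals for miR-205-5p (left) and miR-203-3p (right) in the 10 comparisons, with a filled point where the adjusted p was under 0.05. Only spindloid minus carcinoma (-2.84) is filled for miR-205-5p and only Trp53 minus normal (-1.28) for miR-203-3p.

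The adenosquamous tumour, Met tumour 4, had the highest level of both members among the 23 tumours. It is 1 sample, so no test was made. For miR-205-5p its 9.22 was level with the next tumour, the poorly differentiated MetTrp53 tumour 5 at 9.20, a gap smaller than the SD of 0.06 of the difference between its 2 probes over arrays. For miR-203-3p its 5.40 was followed by 5.28 in MetTrp53 tumour 3 and 5.22 in Met tumour 6. The gap to MetTrp53 tumour 3 was about the size of the SD of 0.11 of the difference between the 2 miR-203-3p probes. Against the mean of the other 6 Met tumours it was higher by 2.65 for miR-205-5p and by 1.14 for miR-203-3p, and 4 and 16 of the 330 tested microRNAs exceeded these margins. This tumour was the highest for 2.73 percent of tested microRNAs (9 of 330) and the lowest for 0.303 percent. Of those 9, miR-204-5p stood out by margin, with 9.06 against 6.78 in the next tumour. It was picked after its values were seen, and it was at 4.52 and 4.801 in the pools. Of the other tested stratified epithelium microRNAs, neither arm of miR-31 was highest there.

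The correlation of miR-205-5p with miR-203-3p passed over all tumours and did not pass within the carcinomas or within Met tumours. Over 23 tumours Pearson's r was 0.54 (permutation p = 0.00626, 0.0313 adjusted over 5 relations) and Spearman's rho 0.60 (permutation p = 0.00273, 0.0136 adjusted). Without the 2 tumours farthest from the median of miR-205-5p r was 0.54, and with slide-centred values r was 0.53 and rho 0.54. Of these tumours 8 were at the floor for both members. Within the 12 carcinomas r was 0.28 and rho 0.32 (permutation p = 0.383 and 0.303, adjusted 0.556 and 0.741), and without the 2 farthest r was -0.03. Within genotypes r was 0.36 in Met, 0.51 in MetTrp53 and -0.17 in Trp53 tumours (exact permutation p = 0.445, 0.250 and 0.875). In the MetTrp53 and the Trp53 group 7 of 8 tumours were at the miR-203-3p floor. Each r there rests on the other tumour, and no rearrangement could give a p under 0.05. In Met tumours without the 2 farthest r was -0.75, over 5 tumours.

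**Figure D4:**
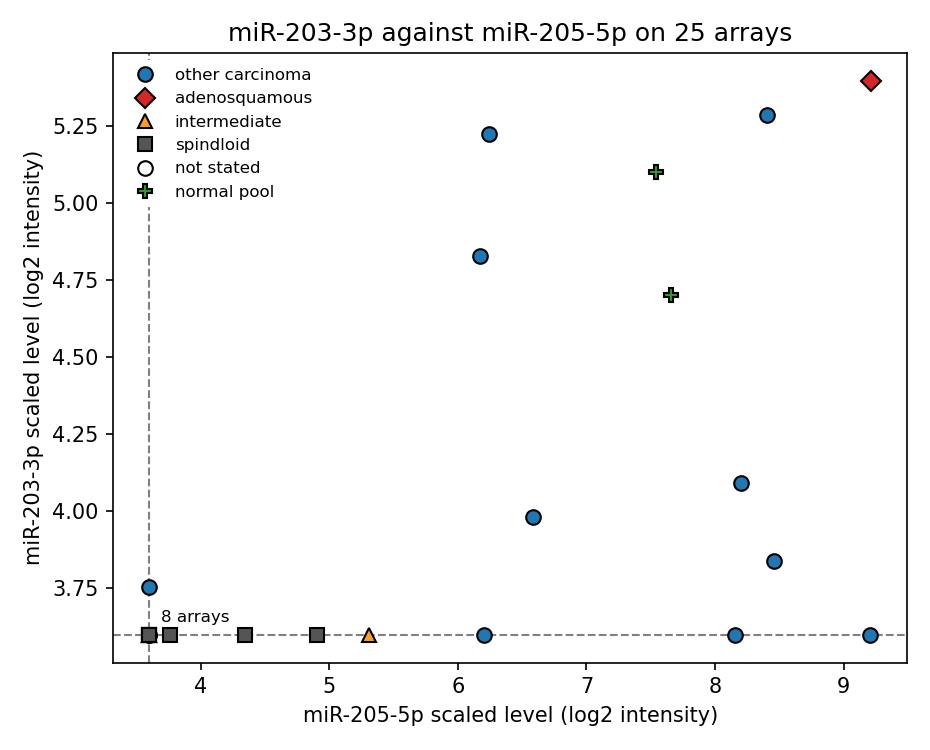
miR-203-3p against miR-205-5p (scaled levels, log2 intensity) on the 25 arrays, with pathology by symbol and the floor of 3.60 as dashed lines. The 8 arrays at the floor for both sit in the corner, and the carcinomas with miR-205-5p above 6 are spread over miR-203-3p from the floor to 5.40.

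The microRNAs whose pattern was most like that of miR-205-5p over the 23 tumours were miR-141-3p (rho 0.85), miR-96-5p (0.84), miR-200a-3p (0.83), miR-200c-3p (0.82), miR-200b-3p (0.82) and miR-148a-3p (0.81). Of these, miR-141, miR-200a, miR-200b and miR-200c belong to the miR-200 family, which holds epithelial cells in their state by pairing with Zeb1 and Zeb2, and miR-96 belongs to a sensory and epithelial cluster. Within the 12 carcinomas the same rho values were 0.35, 0.59, 0.26, 0.21, 0.41 and 0.28. The least like were miR-221-3p (rho -0.78), miR-22-5p (-0.73) and miR-224-5p (-0.72). These are descriptions over tumours that share pathology classes and floor values. miR-203-3p ranked 21 by likeness to miR-205-5p among the 324 other microRNAs that varied between tumours.

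For miR-203-3p the most alike were miR-141-5p (rho 0.84), miR-101c (0.83), miR-200b-5p (0.78), miR-429-3p (0.77), miR-200a-3p (0.76) and miR-141-3p (0.76). Within the 12 carcinomas the same rho values were 0.69, 0.85, 0.40, 0.52, 0.54 and 0.63. The least like were miR-125b-5p (-0.77), let-7e-5p (-0.76) and miR-31-3p (-0.75), and within carcinomas they were at -0.50, -0.88 and -0.49. miR-31 is itself a microRNA of skin, so it ran opposite to the member although both are known from stratified epithelium. For miR-203-3p 15 of 23 tumours were tied at the floor.

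miR-200c-3p, the member of that family with the highest Pearson r with miR-205-5p (0.88), is given as an example. It was at 9.18 to 9.83 in the 6 carcinomas with miR-205-5p above 8, and at 10.04, 11.05 and 11.11 in the 3 solid nodular carcinomas, in which miR-205-5p was lower. In Trp53 tumours 2 and 4, the adenocarcinomas without measurable miR-205-5p, it was 4.59 and 3.77. MetTrp53 tumour 1, with miR-205-5p at 6.21, had 7.09. The pools had 7.40 and 7.13, below all 9 of the carcinomas with high levels, while their miR-205-5p was above that of the solid nodular carcinomas. miR-200c-3p was at the floor in 7 tumours, 5 spindloid and 2 intermediate.

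**Figure D5:**
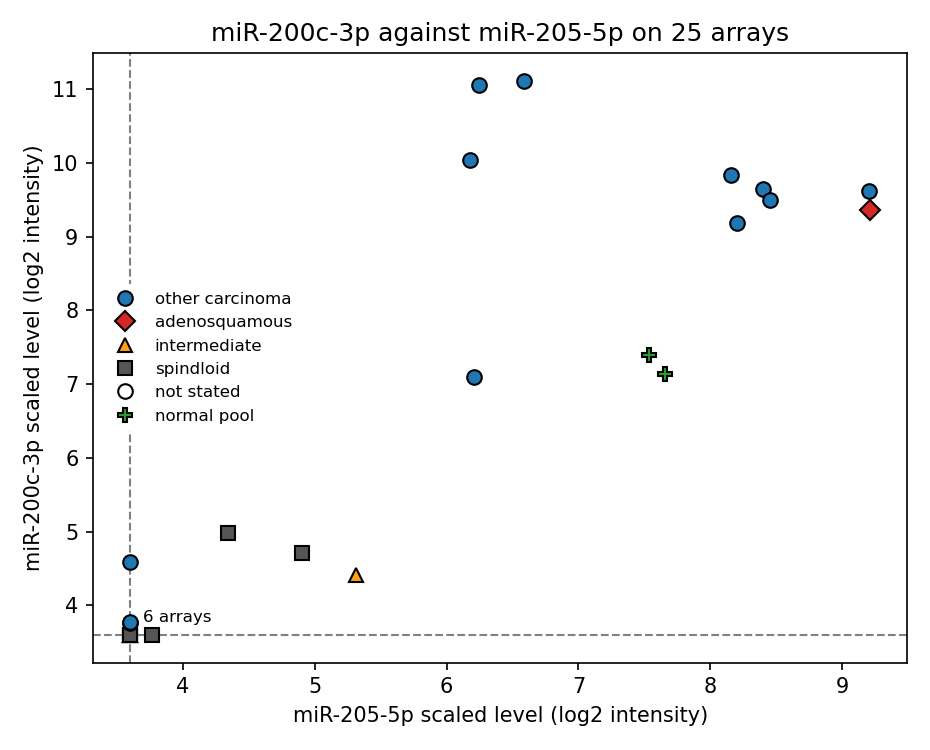
miR-200c-3p against miR-205-5p (scaled levels, log2 intensity) on the 25 arrays, with pathology by symbol and the floor as dashed lines. Spindloid and intermediate tumours lie at low levels of both, and the solid nodular carcinomas, near 6.2 to 6.6 for miR-205-5p, have the highest miR-200c-3p.

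Other lists of cell type microRNAs moved with the same pathology contrast, in which 4.24 percent of tested microRNAs fell and 1.52 percent rose. In spindloid tumours against carcinomas 5 of 5 miR-200 family members fell, for example miR-200b-3p by -4.24 (SE 0.64, limma adjusted p = 0.000802), with a list median of -3.90 against -0.03 over all 330. Of 5 tested other epithelial microRNAs 3 fell: miR-96-5p by -2.33, miR-183-5p by -2.14 and miR-182-5p by -1.47. Of the 4 tested stratified epithelium microRNAs 1 fell, miR-205-5p, and 1 rose, miR-31-3p by 1.53 (SE 0.44, limma adjusted p = 0.0467); its other arm, miR-31-5p, was 2.35 higher (SE 0.80, limma adjusted p = 0.0979). miR-184-3p, a microRNA of eye and skin epithelium, was detected in 1 pool and 1 carcinoma and was not tested.

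Of the 5 tested mesenchymal microRNAs 1 rose, miR-199b-5p by 2.05 (SE 0.50, limma adjusted p = 0.0150). The mesenchymal summed level was 9.23 to 12.09 in spindloid tumours and 7.20 to 10.86 in carcinomas, and 4 of the 5 were detected in all 23 tumours, miR-10b-5p in 22. Of the 3 adipose microRNAs 1 fell, miR-193b-3p by -1.93. None of the 2 smooth muscle and myoepithelial, 5 skeletal muscle, 2 endothelial or 5 leukocyte microRNAs tested passed. The smooth muscle and myoepithelial sum had a median of 5.52 in spindloid tumours and 5.64 in carcinomas, the endothelial sum 9.83 and 8.68, and the leukocyte sum 10.16 and 9.07. The part of these cell types in the levels of miR-205-5p and miR-203-3p was not tested.

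Between Met and Trp53 tumours 4.55 percent of tested microRNAs were higher in Met and 5.45 percent lower. There 3 of 5 miR-200 family members rose, among them miR-141-3p by 3.43 (SE 0.86, limma adjusted p = 0.0127), and miR-199b-5p and the leukocyte microRNA miR-223-3p fell by 2.16 and 1.64. None of the 4 tested stratified epithelium microRNAs passed, and miR-31-5p was at -2.83 (SE 0.93, limma adjusted p = 0.0513) while both members were higher in Met. The list median was -0.33 against 0.01 over all tested microRNAs.

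Parity could be compared only in Trp53-deleted tumours, 9 nulliparous and 4 multiparous. miR-205-5p had a lowest, median and highest level of 3.60, 4.34 and 9.20 in the nulliparous tumours and 3.60, 4.90 and 8.40 in the multiparous ones, with a fitted difference of -0.48 (SE 1.30, limma adjusted p = 0.881). miR-203-3p was at the floor in all 9 nulliparous tumours, though 2 of them counted as detected, and in 3 of the 4 multiparous ones; MetTrp53 tumour 3 at 5.28 was the exception. Its fitted difference was -0.47 (SE 0.26, limma adjusted p = 0.777), and without that tumour it was 0. In this comparison limma called 0 of 330 microRNAs, and 17 had an unadjusted p under 0.05.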

How the data were processed

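The deposited scanner files hold spot intensity values made with Agilent Feature Extraction 10.7.3.1, background-subtracted by that software, per the file headers. A second deposited file, the authors' table, gives 1 log2 value per spot, and the submitters' processing notes name RMA without a version. Its column medians lay between 1.72 and 1.91, and each column matched its own array best. Its centring is unknown.

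Processed signals were averaged over spots not marked as outliers and divided by each array's 75th percentile over the 221 probes well above background on all 25 arrays. The floor was 0.0212 of that percentile, log2 was taken, and probes of a microRNA were averaged. MicroRNAs detected by the scanner software on at least 7 tumour arrays or both pools were tested, 330 in all. limma 3.58.1 in R 4.3.3 was fitted to all 25 arrays by group, to the 22 tumours of stated pathology with genotype as a covariate, and to Trp53-deleted tumours for parity, and a Benjamini-Hochberg adjusted p under 0.05 counted as a call. Correlations and their permutation tests used NumPy 2.4.6 and SciPy 1.17.1 in Python 3.11.15, with all rearrangements under 10 values and 100000 otherwise. The exact group tests ran in R over all splits. The fit was tested on simulated data. Tumour numbers follow accession order and are names only. The normexp alternative started from median spot and background signals, because the files used hold no mean spot signal.

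The members and all lists were chosen with earlier results of these data known. The microRNAs named are the members, their other arms, listed markers, and for each member the 6 with the highest and 3 with the lowest Spearman rho over tumours; miR-204-5p was added after its values were seen. Alternatives covered background correction, scaling, the floor, the filter, probes, the authors' table, slide and scan date, covariates and single arrays.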

Additional observations from a re-analysis of the deposited data

Results flagged for a closer look

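In 3 of 9 groups of 4 to 10 tumours, 1 tumour lay far from the others by Dixon's criterion, which chance meets in about 1 group in 20 where values are continuous. In both groups of miR-203-3p 7 of 8 tumours were tied at the floor, so that any single value above it meets the criterion and that rate does not apply. In the Trp53 group of miR-205-5p 6 of 8 tumours were tied at the floor, so that rate does not apply there either. For miR-205-5p, Trp53 tumour 3, a poorly differentiated adenocarcinoma, had 8.15 against 4.34 in the next of the 8 Trp53 tumours. For miR-203-3p, MetTrp53 tumour 3, also a poorly differentiated adenocarcinoma, had 5.28 while the other 7 MetTrp53 tumours were at the floor of 3.60. Trp53 tumour 2 had 3.75 of miR-203-3p, just above the floor, and the other 7 Trp53 tumours were at the floor.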

How the results depend on the processing

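Of 290 values recomputed under other settings, 256 kept their direction and their side of the threshold, as did 276 of 294 with 1 array left out. With normexp the miR-203-3p differences were -0.048 for MetTrp53 minus Trp53, 0.0074 for Met minus normal, -0.24 for Trp53 minus normal (not called) and -0.57 for spindloid minus carcinoma (called). MetTrp53 minus normal was called for miR-203-3p with quantile normalisation (-1.32), scaling by the percentile of every mouse probe (-1.35), the brightest probe (-1.73), the authors' table (-2.65) and a floor 4 times lower (-2.59), and tumours minus normal with quantile normalisation (-1.18), that percentile (-1.21) and the authors' table (-2.21). Met minus Trp53 was called for miR-205-5p with the authors' table (3.79), the lower floor (3.86) and the exact permutation test (2.69), and for miR-203-3p with the brightest probe (1.23), the authors' table (1.71), the lower floor (1.99), eBayes with trend and robust (0.80) and the permutation test (0.80). With normexp Met minus Trp53 was 1.31 for miR-205-5p and 0.25 for miR-203-3p, and with a floor 2 times higher 2.01 and 0.27, none called. Spindloid minus carcinoma was called for miR-203-3p with the authors' table (-1.71), the lower floor (-1.78) and the permutation test, added after seeing the data (-0.63). For miR-203-3p, Trp53 minus normal was not called with a floor 2 times higher (-0.51), no detection filter (-1.28), slide (-1.05) or scan date (-1.24) as a block, or tumours of a shared title number averaged (-1.29). For miR-205-5p, spindloid minus carcinoma was not called with no filter (-2.84) or with intermediate counted as carcinoma (-2.25). MetTrp53 minus Met turned for miR-205-5p with pathology as a covariate (0.071) and in carcinomas only (0.46), and nulliparous minus multiparous turned with the authors' table (0.19). The correlation of the members had rho 0.32, not called, in carcinomas only. The causes were not tested.

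With 1 array left out, miR-203-3p ranged from 0.64 to 0.94 for Met minus Trp53, -0.82 to -0.45 for MetTrp53 minus Met, -0.019 to 0.22 for MetTrp53 minus Trp53, -1.30 to -0.89 for MetTrp53 minus normal, -1.48 to -1.08 for Trp53 minus normal and -1.15 to -0.75 for tumours minus normal. miR-205-5p ranged from 2.31 to 3.24 for Met minus Trp53, -3.89 to -3.24 for Trp53 minus normal, -1.21 to 0.54 for nulliparous minus multiparous and -3.22 to -2.46 for spindloid minus carcinoma. Under normexp the median of all tested microRNAs moved by 0.32 in Trp53 minus normal and by -0.21 in spindloid minus carcinoma, and with the percentile of every mouse probe the share of calls that were higher went from 31.7 to 5.71 percent in Met minus normal. No paired analysis was possible because replicate numbers follow accession order and pair no samples. Title numbers link 2 pairs of Trp53 tumours, of which only tumours 4 and 8 span a carcinoma and a spindloid tumour. Added after seeing the data, title number as a random block gave -2.74 for miR-205-5p in spindloid minus carcinoma (limma adjusted p = 0.0329), and averaging Trp53 tumours 2 and 3, both carcinomas, gave -2.84 (limma adjusted p = 0.0124). Levels near the floor limit miR-203-3p most: 15 of 23 tumours give only a bound.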
